A study of Mus musculus with 2 samples.

Results

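The Hox cluster genes of the mouse were described in single-cell transcriptomes of adipocyte precursor cells, the fibroblast-like cells from which fat cells form. Members were the genes whose symbol is Hoxa, Hoxb, Hoxc or Hoxd followed by digits only, which gave 39 of the 27998 genes in the count matrix. The cells were flow-sorted from subcutaneous fat of 12-day-old wild-type pups. The pups had been cross-fostered onto dams that produced milk fat with either high or low n-6/n-3 polyunsaturated fatty acids, with 1 sample per condition. The labels give 3000 sorted cells per condition and droplet capture with 3′ chemistry, in which each captured molecule carries a unique molecular identifier (UMI). How many pups were pooled, and their sex, are not given in the sources used here. The deposited matrix joins 2 libraries, told apart by a barcode suffix that no label ties to a diet, so they are called library 1 and library 2 and no diet comparison was made. With 1 sample per condition there were no replicates, no p-value was computed, and every interval is a 95% interval for counting error only.

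Hox genes encode homeodomain transcription factors that give cells along the body axis their positional identity. They lie in 4 clusters, and within a cluster the order of the genes, numbered as paralogue groups from the anterior to the posterior end, follows the order in which they are expressed along the axis. Fibroblasts and fat depots of adult animals keep part of this code, and depots from different body sites differ in it. Hox proteins bind DNA together with TALE homeodomain partners of the Pbx, Meis and Pknox families, and Polycomb and Trithorax proteins keep the clusters silent or open.

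By the GENCODE annotation of GRCm38, the build named mm10 in the submitters' notes, all 39 members were found by identifier. The Hoxa members span chr6:52155590-52260880, the Hoxb members chr11:96194316-96368256, the Hoxc members chr15:102921103-103036852 and the Hoxd members chr2:74668310-74765142. Promoter sequences from RefSeq (GRCm38.p6) were at hand for 22 of the 39 members. The 250 bases upstream of the start are shown for 3 of them, on the strand of the gene, because the results below turn on differences of these genes between kinds of cell. Hoxd8 was lower in committed preadipocyte-like cells, and Hoxa5 and Hoxb4 were higher in cells with endothelial markers. The stretches lie at chr2:74704365-74704614 on the plus strand (Hoxd8), chr6:52204588-52204837 on the minus strand (Hoxa5) and chr11:96318017-96318266 on the plus strand (Hoxb4), 5′ to 3′. Capitals mark the homeodomain core motif TAAT, read on either strand, so that ATTA is the same motif on the other strand.
Hoxd8: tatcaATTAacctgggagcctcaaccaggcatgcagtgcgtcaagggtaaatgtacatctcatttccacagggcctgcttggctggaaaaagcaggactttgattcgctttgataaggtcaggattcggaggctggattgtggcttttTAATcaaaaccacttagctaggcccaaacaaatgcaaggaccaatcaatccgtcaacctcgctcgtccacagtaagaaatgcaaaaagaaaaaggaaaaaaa
Hoxa5: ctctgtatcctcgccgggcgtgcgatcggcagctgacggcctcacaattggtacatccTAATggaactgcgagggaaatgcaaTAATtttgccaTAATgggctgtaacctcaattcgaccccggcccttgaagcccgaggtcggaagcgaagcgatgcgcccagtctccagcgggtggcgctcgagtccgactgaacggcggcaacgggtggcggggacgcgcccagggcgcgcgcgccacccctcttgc
Hoxb4: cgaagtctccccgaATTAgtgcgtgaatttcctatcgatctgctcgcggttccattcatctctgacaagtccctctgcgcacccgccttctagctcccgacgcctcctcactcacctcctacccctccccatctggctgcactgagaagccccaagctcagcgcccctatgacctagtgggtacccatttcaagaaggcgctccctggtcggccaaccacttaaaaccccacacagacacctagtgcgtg
The motif occurred 2 times upstream of Hoxd8, 3 times upstream of Hoxa5 and 1 time upstream of Hoxb4. TAAT was present in 18 of the 24 promoters of the 22 members, beside 54.9% of the 32851 promoters in the table. The joint Pbx-Hox motif TGATTNAT, searched on both strands, was present in 2 of the 24, beside 2.82% of all promoters. CG dinucleotides numbered 6 upstream of Hoxd8, 14 upstream of Hoxb4 and 28 upstream of Hoxa5, with a median of 12.5 over the member promoters and 6.0 over all promoters. These letters describe the sequences and say nothing of binding in these cells.

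Of 6905 barcodes, 6885 were kept, 3307 in library 1 with a median of 12962 UMIs and 3578 in library 2 with a median of 12112.5. The libraries shared 17 barcode sequences, and doublets were not removed. The labelled cell type was checked by its markers: the 6 precursor genes, among them Pdgfra and Dcn, summed to 49500 counts per 1000000 UMIs (CPM) in the 6780 cells kept as precursors, and the 4 epithelial genes to 0.0357 CPM. Within the precursors, cells were ranked by 2 marker scores. Dpp4-type progenitor-like cells (2058) had a high score for Dpp4, Pi16, Wnt2, Anxa3, Cd55 and Sema3c, and committed preadipocyte-like cells (2059) a high score for Icam1, Lpl, Pparg, Cd36, Fabp4, Col4a1 and Col4a2. The other classes were midway cells (2133), F3-type stromal-like cells (329, the highest scores for F3, Mgp, Vit, Vtn, C2, Fmo2 and Clec11a) and cycling cells (201, with Mki67 and Top2a UMIs). These classes are ranges of a score rather than cell types: 1031 of the 6250 cells split by the progenitor and committed scores lay within 0.1 of the progenitor cut and 599 within 0.1 of the committed cut. Small sets of cells outside the lineage were set aside by their UMIs, 53 with endothelial markers, 33 with immune markers and 19 with erythroid markers, all 19 of the last in library 1.

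The Hox code of the sorted cells was led by Hoxc genes of the middle paralogue groups and held almost nothing of the most posterior ones. The 39 members together had 13136 UMIs, or 154 CPM (151 to 156). The Hoxc cluster supplied 52.1% of them, Hoxb 20.1%, Hoxa 17.2% and Hoxd 10.5%. By paralogue group, groups 4 to 8 supplied 61.3%, groups 9 and 10 supplied 27.8%, groups 1 to 3 supplied 10.2% and groups 11 to 13 supplied 0.678%. Group 8 alone, with Hoxb8, Hoxc8 and Hoxd8, supplied 22.4%. Levels are compared between genes without division by gene length, because each captured molecule counts once in 3′ UMI data. The map of levels by cluster and paralogue group shows this profile.

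**Figure D1:**
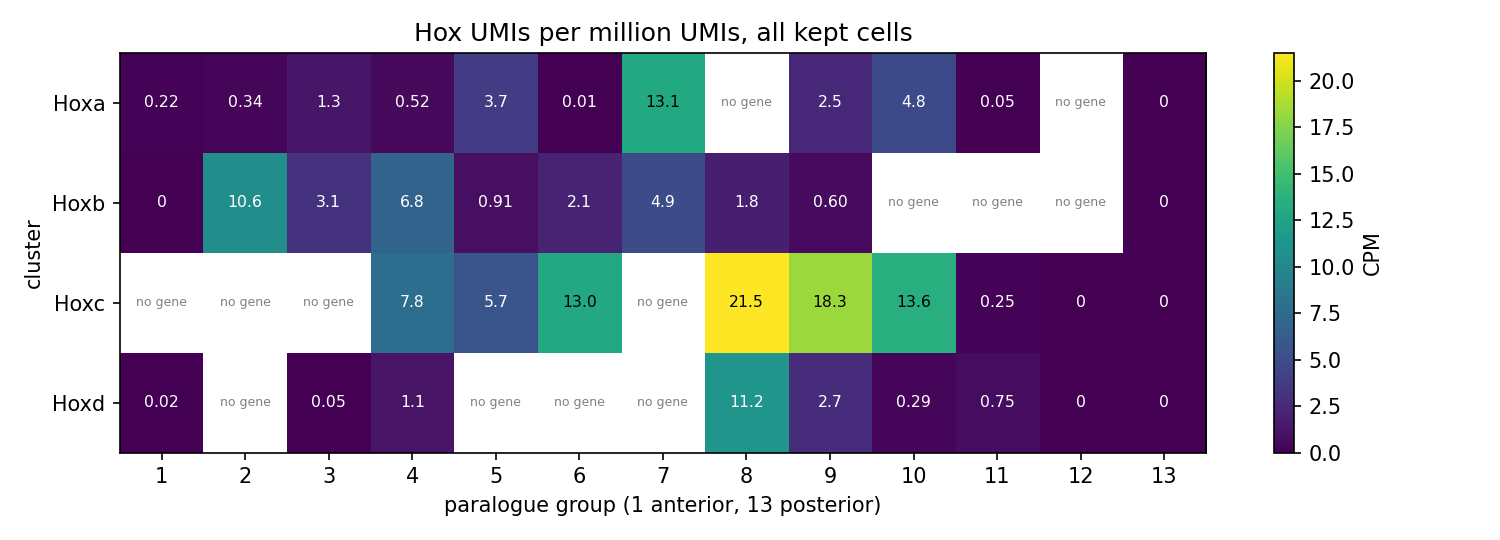
CPM of each Hox member over all kept cells, with the 4 clusters as rows and paralogue groups 1 to 13 as columns; white cells have no gene. Levels are highest for Hoxc8 (21.5 CPM) and Hoxc9 (18.3 CPM), and no member of groups 12 and 13 has a UMI.

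Levels did not change smoothly along a cluster. Among the Hoxa genes, Hoxa7 stood at 13.1 CPM (12.3 to 13.9) while Hoxa6, its neighbour in number, had 1 UMI in all kept cells. Hoxb2, an anterior gene known for hindbrain patterning, stood at 10.6 CPM (9.96 to 11.4), while Hoxb1 had no UMI and Hoxa2 had 0.339 CPM (0.227 to 0.487). In the Hoxd cluster, Hoxd8 stood at 11.2 CPM (10.5 to 11.9) and no other Hoxd gene exceeded the 2.74 CPM of Hoxd9. Hoxb2, Hoxa7 and Hoxd8 thus stood well above their neighbours in number.

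Of the members, 10 had at least 5 CPM over all kept cells, a level that 8672 of all genes reached. Hoxc8, a thoracic gene also studied as a repressor of brown-fat genes, led with 23.2 CPM in library 1 and 19.8 in library 2. Hoxc9, which sets thoracic identity in spinal motor neurons, followed with 19.4 and 17.1 CPM. The intervals of these levels did not overlap each other or those of the next genes over both libraries. Hoxc10, a lumbar gene, had 14.5 and 12.7 CPM in the 2 libraries, Hoxa7 had 14.4 and 11.8, and Hoxc6, a gene of the forelimb to thoracic level, had 14.3 and 11.8. Over both libraries these 3 genes lay at 13.6, 13.1 and 13 CPM. The log2 ratio was 0.05 (-0.07 to 0.17) for Hoxc10 over Hoxa7 and 0.01 (-0.11 to 0.13) for Hoxa7 over Hoxc6, so the order of these neighbours was not resolved.

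Hoxd8 and Hoxb2 formed the next level, with 10.9 and 11.4 CPM for Hoxd8 and 11 and 10.3 CPM for Hoxb2 in libraries 1 and 2, and a log2 ratio of 0.07 (-0.06 to 0.21) of the first over the second. Below them lay 3 genes of the cervical to upper thoracic groups. Hoxc4 had 8.44 and 7.18 CPM, Hoxb4 had 7.30 and 6.33 CPM, and Hoxc5 had 5.90 and 5.48 CPM. Hoxb4, known for expanding blood stem cells when overexpressed, lay a little below Hoxc4: the log2 ratio of Hoxc4 over Hoxb4 was 0.20 (0.03 to 0.36). That of Hoxb4 over Hoxc5 was 0.26 (0.08 to 0.44). Just under the threshold were Hoxb7 at 4.92 CPM and Hoxa10 at 4.82 CPM.

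Of the remaining members, 10 lay between 1 and 5 CPM, 12 lay above 0 and under 1 CPM, and 7 had no UMI. The 7 were Hoxb1 and the genes of groups 12 and 13, Hoxa13, Hoxb13, Hoxc12, Hoxc13, Hoxd12 and Hoxd13, which pattern the tail and the distal limb and genital region. Taking 3 UMIs of the total as the limit that a count of 0 allows, their levels were at most 0.0351 CPM by counting error. The highest level in groups 11 to 13 was that of Hoxd11, 0.748 CPM (0.576 to 0.956). The code thus dropped off between groups 10 and 11.

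Some members share exonic bases with a neighbour in the annotation, and the sources used here do not say whether counting used strand. Hoxd3 and Hoxd4 share 62.3% and 52.3% of their exonic bases with other genes of the same strand, so their split is uncertain. Hoxc5 and Hoxc10 share 166 exonic bases. On the opposite strand, 27.3% of the exonic bases of Hoxb2 lie within Hoxb3os, 52.9% of those of Hoxb3 within the same gene and 20.4% of those of Hoxa7 within Hoxaas3. Hoxd8, Hoxc8, Hoxc9, Hoxc6, Hoxc4 and Hoxb4 share none.

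In single cells the code was sparse. A precursor cell had UMIs of 1.63 Hox genes on average (SD 1.37 over 6780 cells), and 21.9% of cells had none (20.9 to 22.9). After each cell was thinned to 7470 UMIs the mean was 1.04 genes, and 35.5% of 6123 cells had none. At that depth 33.1% of Dpp4-type cells (30.9 to 35.2) and 37.4% of committed cells (35.2 to 39.6) had no Hox UMI. Before thinning these shares were 15.7% and 26.1%, at median depths of 13580 and 11486 UMIs per cell. The gap between the states was thus smaller at equal depth.

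Hoxc8, the most often detected member, had a UMI in 21.4% of precursor cells and in 14.3% after thinning. It had none in the 33 cells with immune markers, which by the same limit of 3 counts allows a share of up to 9.09% of cells with a UMI. That share is for a median depth of 7399 UMIs and does not limit the cells that express the gene at a lower level. Summed over members, the immune-marker cells had 51.3 CPM (29.3 to 83.3) of Hox UMIs. Free RNA in droplets was not measured here, and its part in that level was not tested.

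Hox UMIs were spread over cells less evenly than they would be at one level in every cell. For each of the 17 members with at least 2 CPM, the number of precursor cells with 2 or more UMIs was set beside the number that a single level would give at the cells' own depths. All 17 lay above that number, by a median of 1.89 times, against 1.28 times over 6166 genes of the same range of levels, of which 91.2% lay above 1. Hoxa9, a group 9 gene best known from blood cells and leukaemia, had 17 such cells beside 3.38 (5.03 times). For its neighbour Hoxa10 there were 35 beside 12.9 (2.70 times), for Hoxc10 180 beside 94.1 (1.91) and for Hoxa7 160 beside 83.2 (1.92). High ratios were not confined to posterior members: Hoxb3 was at 2.51 and Hoxb6 at 2.45, while Hoxc9 of group 9 was at 1.32. Hoxc6, in contrast, had 99 beside 86.7 (1.14 times), closer to a single level than the other 16. The posterior members of groups 9 and 10 on the Hoxa cluster thus had the highest ratios, on few cells, and the plot of cells with 2 or more UMIs shows them farthest above the line.

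**Figure D2:**
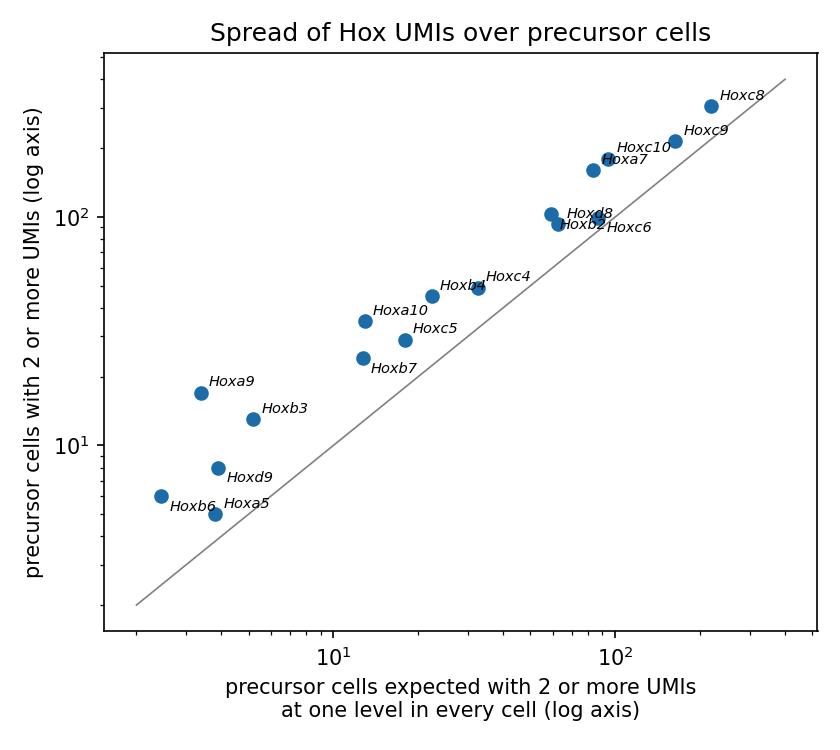
Number of precursor cells with 2 or more UMIs of each of 17 Hox members (vertical, log axis) against the number expected if every cell held the gene at one level (horizontal, log axis); the line marks equality. All 17 points lie above the line, Hoxa9 by 5.03 times and Hoxc6 by 1.14 times.

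A few pairs of members were found in the same cells more often, and a few less often, than independent detection would give. Of 136 pairs of the 17 members, 3 were detected together with an odds ratio of at least 2 in each library after thinning. Another 2 were apart, with an odds ratio of at most 0.5 in each: Hoxb4 and Hoxc5 (2 cells beside 11.8) and Hoxb2 and Hoxd9 (2 beside 7.80). Hoxa9 and Hoxc10 met in 22 cells beside 8.96 if independent, with odds ratios of 3.72 in library 1 and 2.31 in library 2. Hoxb3 and Hoxb4, neighbours on chromosome 11, met in 14 cells beside 5.94, and Hoxb3 and Hoxb6 in 4 beside 1.95. At the cells' full depth 4 pairs passed the same rule for together, and Hoxb3 with Hoxb6 did not, with odds ratios of 1.39 and 1.24. Hoxb3 met Hoxb4 in 35 cells beside 17.4, Hoxa9 met Hoxc10 in 69 cells beside 26.1 and Hoxa10 in 26 beside 10.3, and Hoxa10 met Hoxc10 in 96 beside 51.2. Without thinning, cells of high depth share detections. After thinning to equal depth, the median odds ratio over all 136 pairs was 1.21 in library 1 and 1.23 in library 2. No share over pairs of other genes is set beside these counts, so such pairs are a description.

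To see what else goes with the posterior end of the code, precursor cells with a UMI of a group 10 gene (Hoxa10, Hoxc10 or Hoxd10, 737 of 6123 thinned cells) were set beside cells with none. A gene counted as different when it was at least 1.5-fold apart in the same direction in each library, among genes with at least 5 CPM on 1 side. With the minimum set on the level over both sides together, 9 members were tested and 0 counted as higher, where 0.117% of 8562 genes did so, and 0 as lower, where 0.164% did. With the minimum reached on 1 side alone, Hoxa9 was the 1 member of 11 that counted as higher, where 0.318% of 8794 genes did so, and no member as lower, where 0.182% did. Hoxa9 passed that minimum only through the cells where it is high, so its difference is a description. It was at 6.82 against 1.92 CPM in library 1 and at 3.31 against 1.82 CPM in library 2, a log2 ratio of 1.45 (0.77 to 2.09) over both. Its 28 and 75 UMIs on the 2 sides leave that ratio imprecise, and both libraries lay on the same side. Within Dpp4-type cells alone the ratio was 0.86 and within committed cells 1.46, and in neither did Hoxa9 meet the rule.

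No other named member passed the rule by this split. Hoxc9, the neighbour of Hoxc10, was at 25.8 against 19.3 CPM in library 1 and 20.2 against 17.4 in library 2, a log2 ratio of 0.34 (0.06 to 0.61). Hoxc8 was at 20.5 against 22.2 CPM over both libraries, and Hoxc6 at 13.1 against 13. Hoxa7 was at 9.63 against 12.6 CPM, a log2 ratio of -0.39 (-0.82 to 0.02). Of the cells with group 10 UMIs 30.4% were Dpp4-type, against 31.4% of the others, and 29.4% against 30.4% were committed. The share of cycling cells was 4.61% (3.22 to 6.39) against 2.95% (2.52 to 3.44), and it was the larger in both libraries (3.49% against 2.42% and 5.77% against 3.41%).

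Outside the Hox genes, 5 named genes with at least 20 CPM on 1 side passed the same rule upwards, a rule that 0.318% of 8794 genes passed in that direction. Of the 5, only Eln reached 20 CPM on both sides. C1qtnf3, Cdca3, Dkk2 and Spon1 reached it only in the cells with a group 10 UMI, where they are high. Their differences are thus a description, and no share over genes with at least 20 CPM is set beside them. Elastin (Eln), a fibre protein of the extracellular matrix, was at 2480 against 1170 CPM in library 1 and 1360 against 798 in library 2, a log2 ratio of 0.99 (0.96 to 1.02). The secreted proteins C1qtnf3 (log2 ratio 1.04), Dkk2, a modulator of Wnt signalling (0.91), and Spon1 (0.79) were also higher, as was the cell cycle gene Cdca3 (1.02). With cycling cells left out the ratio of Hoxa9 was 1.42. None of the Hox cofactors, chromatin regulators, upstream genes or positional factors passed the rule, of 7, 19, 2 and 10 tested.

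Between the progenitor and the committed end of the lineage, 2 Hox genes passed the rule and 8 of those tested did not. Of 10 members tested, 2 were lower in committed cells, where 8.16% of 8882 genes were lower, and 0 were higher, where 7.07% of genes were higher. The median log2 ratio was -0.08 over the 10 members and -0.11 over all genes tested. The summed Hox level was 158 CPM (153 to 163) in Dpp4-type cells, 150 (145 to 154) in midway cells and 143 (138 to 148) in committed cells.

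In library 1 Hoxb2 had 13.7 CPM in the Dpp4-type state and 7.80 in the committed state, and 14.6 and 5.62 CPM in library 2. The log2 ratio was -1.06 (-1.34 to -0.79) over both libraries, and midway cells lay between at 10.9 CPM. Hoxd8 had 14 and 7.09 CPM in library 1 and 13.6 and 7.05 CPM in library 2, with a log2 ratio of -0.96 (-1.23 to -0.70) and 11.6 CPM in midway cells. For both genes each library's committed level lay below each library's Dpp4-type level, and the share of thinned cells with a UMI showed the same order. Hoxb2 was detected in 9.56% of Dpp4-type and 4.58% of committed cells, and Hoxd8 in 10.1% and 4.85%.

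These 2 genes also followed each marker score taken alone. The states were cut from the same scores, so the terciles restate the difference and are no further support. The trend was not particular to these genes. Over both libraries Hoxa7 (14.1, 13.7 and 11.4 CPM from the lowest to the highest tercile of the committed score) and Hoxc5 ran the same way on both scores, over a smaller range. Hoxc8 and Hoxc10 ran the opposite way on both. From the lowest to the highest tercile of the committed score, Hoxb2 stood at 13.6, 11.5 and 6.81 CPM and Hoxd8 at 13.4, 12.1 and 7.06 CPM. From the lowest to the highest tercile of the progenitor score, Hoxb2 stood at 6.30, 11.2 and 14.1 CPM and Hoxd8 at 7.69, 11 and 13.7 CPM. The result depends on how states are set: with states from the raw UMIs of 3 genes, which left 10 committed cells, the log2 ratios were 0.47 for Hoxb2 and 0.39 for Hoxd8. With summed raw UMIs of the marker lists, which left 57 committed cells, they were -1.24 and -0.29.

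No Hoxc gene passed the rule. Hoxc8 was at 20.6 CPM at the Dpp4-type end and 23.9 CPM at the committed end (log2 ratio 0.22, 0.05 to 0.39), Hoxc6 at 12.7 and 14.1 (0.16, -0.06 to 0.38) and Hoxc10 at 12.7 and 14.5 (0.19, -0.03 to 0.41). Hoxc9 went the other way at 20.9 and 15.2 CPM (-0.46, -0.65 to -0.26), as did Hoxa7 at 15.1 and 11.4 CPM (-0.40, -0.63 to -0.18), both less than 1.5-fold. Hoxb4 was at 6.24 and 10.0 CPM in library 1 and 5.61 and 6.96 in library 2, so it passed 1.5-fold in library 1 alone. By cluster, Hoxd had 19.6 CPM (18.0 to 21.3) in the Dpp4-type state and 10.4 (9.14 to 11.8) in the committed state, while Hoxc had 80.3 and 80.7 CPM. Hoxd9, below the minimum of 5 CPM in both states, was at 3.62 and 1.72 CPM.

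**Figure D3:**
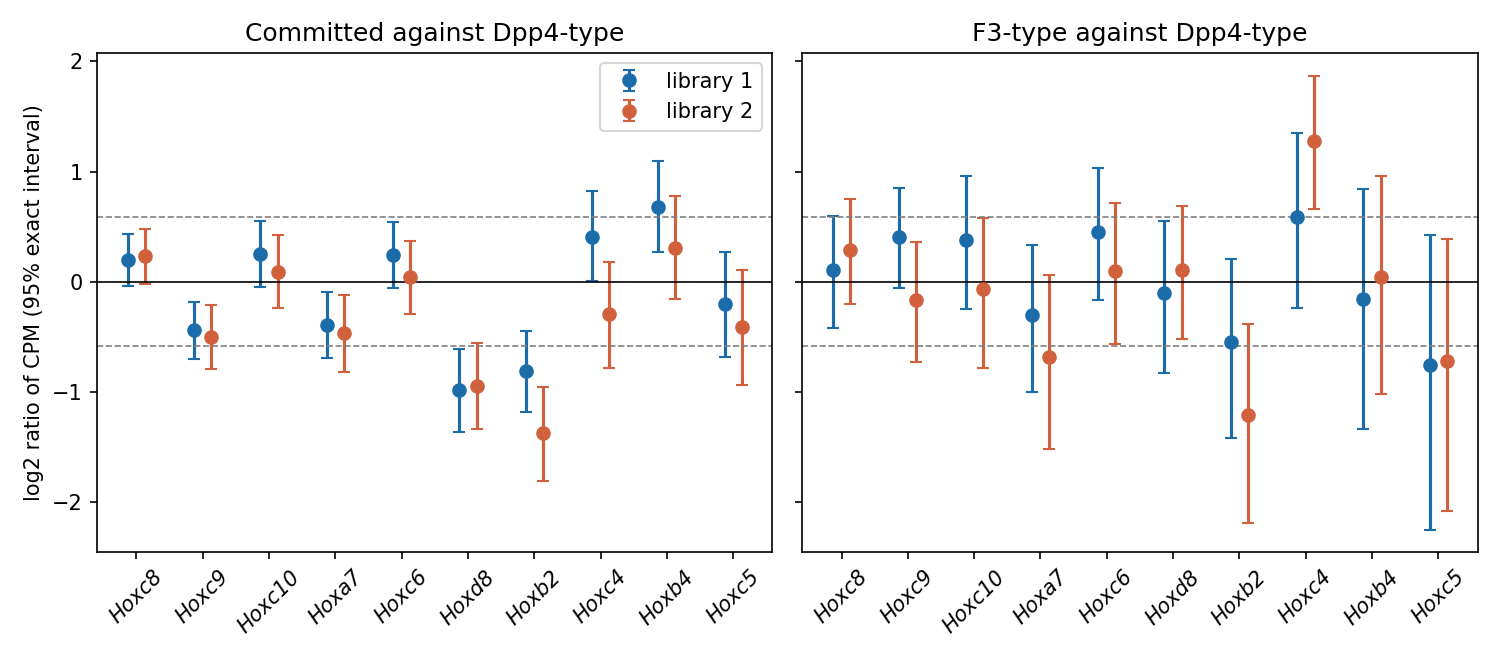
Log2 ratio of CPM with its 95% exact interval for the 10 named Hox members, in library 1 (blue) and library 2 (orange), for committed against Dpp4-type cells (left) and F3-type against Dpp4-type cells (right); dashed lines mark 1.5-fold. Hoxb2 and Hoxd8 lie below the lower dashed line in both libraries on the left, and Hoxc4 reaches the upper one in both on the right.

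Genes that work with Hox proteins or mark position were read from lists. Over all 8882 genes tested, 7.07% were higher in committed cells and 8.16% lower. Of 8 Hox cofactors tested, Pknox2 was higher in committed cells (2.59 to 5.55 CPM, log2 ratio 1.10) and Pbx3 lower (6.61 to 3.70 CPM, -0.84). Of 19 chromatin regulators, 1 was higher and 0 lower. It was Kdm6b, which removes the Polycomb mark on histone H3 lysine 27 and rose from 166 to 282 CPM (0.76). Of 13 positional factors, 3 were higher and 4 lower. Meox1, a mesoderm homeobox gene, rose from 0.512 to 6.44 CPM (3.65), and Lhx8 (1.28) and Meox2 (0.76) were also higher. The Iroquois genes Irx3 (12.0 to 1.72 CPM, -2.79) and Irx5 (-1.80), the forelimb gene Tbx5 (-1.29) and Emx2 (-0.77) were lower. Pknox2, Pbx3, Meox1, Lhx8, Irx3, Irx5 and Tbx5 reached 5 CPM only in the state where they were higher, so their differences are a description. Hotairm1, the antisense RNA at the anterior end of Hoxa, was higher (8.19 to 13.8 CPM, 0.75), and of the upstream genes Rara and Rarg, which encode retinoic acid receptors, neither passed.

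Some marker sums moved with this comparison. The 5 mural markers summed to 9.90 CPM in the Dpp4-type state and 34.7 CPM in the committed state, and the precursor list to 56000 and 40600 CPM. Most of the mural rise was Notch3, at 3.03 and 21.0 CPM, while Rgs5 was at 3.80 and 5.47. The 4 endothelial markers summed to 22.5 and 25.2 CPM. With every cell that had an endothelial, immune or mural UMI left out, Hoxb2 and Hoxd8 still counted as lower and no member as higher.

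In F3-type stromal-like cells, a small class of 329 cells, 1 Hox gene was higher and 1 lower. Of 11 members tested against Dpp4-type cells, Hoxc4 counted as higher, where 8.39% of 9087 genes were higher, and Hoxc5 as lower, where 7.65% were lower. In each direction that is 9.09% of the members, near the share over all genes. Hoxc4 was at 7.0 and 10.6 CPM in library 1 and 6.89 and 16.8 CPM in library 2, a log2 ratio of 1.0 (0.52 to 1.46). In library 1 that gene stood at a log2 ratio of 0.59 (-0.24 to 1.35), at the limit of the rule, and scaling by the trimmed mean of M values (TMM) ended its call with the ratio over both libraries at 1.02, because library 1 then fell short of 1.5-fold. Hoxc5, at 3.70 CPM in F3-type and 6.18 in Dpp4-type cells, reached 5 CPM only in the latter, where it is high. It also counted as lower with the minimum set over both sides together. Hoxc5 rested on 13 UMIs in F3-type cells, and its log2 ratio of -0.74 (-1.68 to 0.07) spans 0. With Mgp left out of the F3 list its ratio was -0.43 and it no longer counted as lower, while Hoxb2 did, at -0.98. Hoxd8 was at 13.9 CPM in F3-type and 13.8 in Dpp4-type cells, against 7.07 in committed cells. Hoxb2 was at 7.68 CPM, near its committed level, and passed 1.5-fold in library 2 alone.

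Among the listed partners, F3-type cells had more Rara, a retinoic acid receptor (12.1 to 23.0 CPM, log2 ratio 0.93), more Meox2 (7.78 to 53.7 CPM, 2.79) and more Lhx8 (1.09). They had less Irx5 (-2.95), Irx3 (-1.69), Tbx5 (-1.18), Emx2 (-0.89), Pbx3 (-0.96) and Meis3 (-0.71). Lhx8, Irx5, Irx3, Tbx5 and Pbx3 reached 5 CPM only on the side where they were higher, so their differences are a description. No chromatin regulator of 19 passed in either direction. This comparison shares its Dpp4-type cells with the committed one, so the 2 are not independent.

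The 2 libraries were set side by side in precursor cells with no diet attached. Hox levels were a little lower in library 2. The Hox sum was 163 CPM (159 to 167) in library 1 and 141 CPM (138 to 145) in library 2, and it was also lower in library 2 within each of the 5 classes. Of 11 members tested, 10 were lower in library 2, and the median log2 ratio was -0.23, against 0.00 over all genes. For 7 of the 11 the interval lay wholly below 0, where that held for 14.0% of 8756 genes, and for 9.91% of those with 5 to 25 CPM in library 1.

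Single differences were small. Hoxa10 was the 1 member past 1.5-fold, where 0.308% of genes were lower and 0.548% higher by as much, at 5.89 against 3.92 CPM (log2 ratio -0.59, -0.88 to -0.30). It passed the minimum of 5 CPM only through library 1, where it is high, and had 4.89 CPM over all precursor cells. Its difference is thus a description, and it is among the 11 members tested and the 7 with an interval wholly below 0. Hoxc8 was at a log2 ratio of -0.24 (-0.37 to -0.10) and Hoxc6 at 14.5 against 11.8. Hoxd8 was the exception, at 10.8 against 11.3 CPM (0.06, -0.13 to 0.25). With 1 library per condition, condition and library cannot be told apart.

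**Figure D4:**
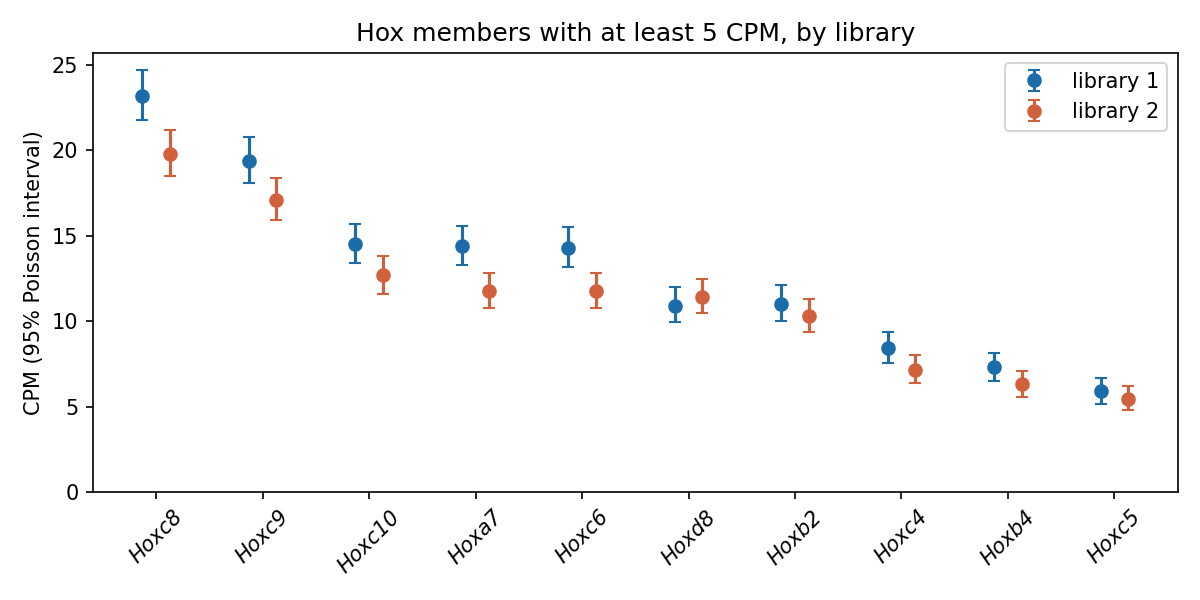
CPM with its 95% Poisson interval over all kept cells for the 10 Hox members with at least 5 CPM, in library 1 (blue) and library 2 (orange). Library 2 lies below library 1 for 9 of the 10 genes, from 19.8 against 23.2 for Hoxc8 to 5.48 against 5.90 for Hoxc5, and above it for Hoxd8.

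The 53 cells with endothelial markers carried another Hox code, a comparison chosen after its values were seen. They were selected by at least 5 UMIs of Pecam1, Cdh5, Cldn5 and Egfl7, genes that are no Hox members. Their Hox sum was 355 CPM (320 to 393), of which Hoxa supplied 43.8%, Hoxb 34.1% and Hoxc 9.19%, where Hoxc led in the precursors. Of the 10 members with at least 5 CPM over both kinds of cell together, 3 were higher than in precursor cells (Hoxa7, Hoxb4 and Hoxd8), where 20.6% of 8667 genes were higher. Another 5 were lower, where 14.2% of genes were lower. With the minimum reached on 1 side alone, 13 of 21 members counted as higher, where 27.9% of 9965 genes did, and 5 as lower, where 12.3% did. Of those 13, 10 passed the minimum only through the endothelial-marker cells and so had to differ, and their values, those of Hoxa5 included, are a description.

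Hoxa5, a gene of the cervical level that is also studied in blood vessel lining, had 88.3 CPM in endothelial-marker and 3.04 in precursor cells of library 1, and 98.6 and 2.22 CPM in library 2. Its log2 ratio was 5.15 (4.79 to 5.50), and it was the most abundant Hox gene of these cells. Hoxb9 (13.4 against 0.441 CPM, 4.93), Hoxb8 (27.8 against 1.47 CPM, 4.25), Hoxa4 (3.93) and Hoxb5 (3.39) followed. Hoxb4 and Hoxa7 both stood at 35.5 CPM, against 6.46 and 12.9 CPM in precursors. The 5 lower members were all Hoxc genes: Hoxc10 (3.84 against 13.7 CPM, log2 ratio -1.84), Hoxc5, with 2 UMIs in these cells, Hoxc9 (-1.46), Hoxc8 (-1.34) and Hoxc6 (-1.19). Hoxd8, at 25.9 against 11.1 CPM, was higher.

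**Figure D5:**
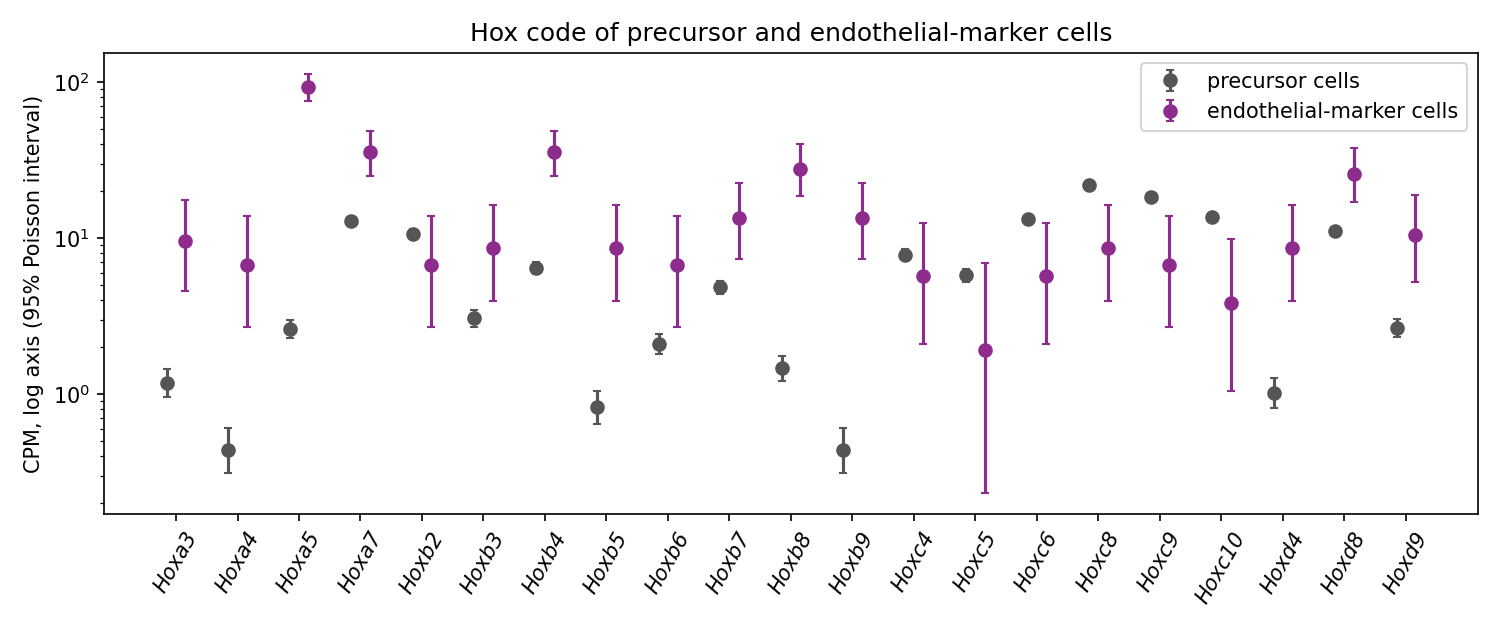
CPM with its 95% Poisson interval on a log axis for each Hox member with at least 5 CPM in precursor cells (grey) or in the 53 endothelial-marker cells (purple). Hoxa5 reaches 93.0 CPM in the endothelial-marker cells against 2.62 in precursors, while Hoxc6, Hoxc8, Hoxc9 and Hoxc10 lie lower.

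All 4 non-coding genes of the clusters that could be tested were higher in these cells, where 27.9% of 9965 genes were. Hoxaas3 (8.63 against 1.45 CPM) and Hoxb3os (24.9 against 3.72) passed the minimum only through the endothelial-marker cells and so had to differ. Hotairm1, at 71.9 against 10.2 CPM, and Hoxd3os1, at 30.7 against 9.13, passed it on both sides. The positional factors En1 (-1.66), Tbx15 (-1.89), Prrx1 (-1.69) and Emx2 (-1.64) were lower, and the cofactor Meis1 had no UMI against 11.4 CPM in precursors. The cells were not a pure set. Their median depth was 19074 UMIs against 12504 in precursors, 44 of the 53 had a mural UMI, and the erythroid list summed to 21500 CPM, the committed list to 26200 CPM and the precursor list to 11300 CPM. The part of mixed droplets in these levels was not tested. Without the 9 cells at 100 or more erythroid UMIs, 14 members were higher and 5 lower. With the 23 cells no deeper than the 95th percentile of precursors, 7 were higher and 2 lower. Of the members that lost their call there, Hoxa4 (log2 ratio 5.01), Hoxb9 (5.01), Hoxb5 (4.11), Hoxa3 (3.0) and Hoxc6 (-1.48) were still past 1.5-fold over both libraries, as was Hoxb6 (1.17). Hoxd8 (0.36), Hoxc8 (-0.20) and Hoxc5 (-0.29) were not. The counts under both filters use the minimum reached on 1 side alone. No share over all genes is set beside them, so they are a description.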

How the data were processed

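The cells were flow-sorted adipocyte precursors, with 1 sample per milk fat condition. The authors deposited raw UMI counts, whole numbers per gene and barcode in 1 matrix that joins both libraries, without normalization. Tools named are Seurat 3.0.1 and Cell Ranger, without its version, and the build mm10, per the submitters' processing notes. Per the labels, chemistry was 10x Genomics 3′ version 2. The libraries hold 42092816 and 43491307 UMIs. Barcodes were kept with at least 500 genes and at most 10% mitochondrial UMIs, and no doublets were removed.

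A state score is the mean over a list's genes of ln(1 + UMIs per 10000). Cycling cells had 2 or more Mki67 and Top2a UMIs, and F3-type cells the top 5% of the F3 score. Dpp4-type cells lay in the top tercile of the progenitor score (cut 1.60) and not of the committed score (cut 0.964), committed cells the reverse, and midway cells were the rest. Cells with at least 5 endothelial, 10 immune or 100 erythroid UMIs were set aside.

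Counts were summed per class and library and given as CPM with exact Poisson intervals. Ratios have conditional exact intervals and shares Clopper-Pearson intervals, all at 95%. A gene counted as different at 1.5-fold or more in the same direction in each library, with at least 5 CPM in 1 class. Thinning drew 7470 UMIs per cell, the 10th percentile, and left out 375 and 314 shallower cells. Per-cell detection is given at both depths. The comparison was tested on simulated data: of 50 genes made 2-fold lower, 96.0% were recovered for committed against Dpp4-type cells (8550 genes tested) and 78.0% for F3-type against Dpp4-type cells (8630 genes tested). Simulated counts were Poisson draws from 1 profile shared by both libraries, with the minimum set over both classes together. They held no spread between cells or libraries beyond counting error, so recovery with such spread was not tested.

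Members with at least 5 CPM are named with values, and listed partners where they passed the rule, up to 6 per list. Beside the group 10 split, up to 10 genes per direction with at least 20 CPM are named, without Gm, Rik, ribosomal and mitochondrial genes. Hoxa9, Hoxa5, Hoxa10, Hoxb8, Hoxb9 and further members under 5 CPM, and partners given with values that did not pass, were chosen after their values were seen. Some results are not reported here. Members and lists were chosen with earlier results of these data known. Alternatives covered scaling (edgeR 4.0.16 TMM), level minimum (also over both sides together), fold, thinning and how states were set. Tools were numpy 2.4.6, scipy 1.17.1 and pandas 2.3.3.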

Additional observations from a re-analysis of the deposited data

How the results depend on the processing

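No paired analysis was possible because each condition has 1 sample and no barcode suffix is tied to a condition; states, present in both libraries, were compared within each library by the rule itself. The 2 members lower in committed cells, Hoxb2 and Hoxd8, were called under TMM scaling, thinned counts and narrower states. With a minimum of 20 CPM or a 2-fold rule 0 were called lower, with no minimum 4, and with states from raw UMIs of Dpp4, Pi16 and Icam1, which held 10 committed cells, 8, with Hoxb2 at 0.47 and Hoxd8 at 0.39. For F3-type cells, members called higher and lower were 0 and 0 at 20 CPM, at 2-fold and with narrower states, and 4 and 2 with no minimum. TMM scaling left 0 higher, with Hoxc4 at 1.02, and thinning gave 2 lower. Without Mgp in the F3 list Hoxb2 (-0.98) was called lower in place of Hoxc5 (-0.43). Splitting cells by group 9 gave 0 members higher, and within Dpp4-type cells 1 member, Hoxa7, was lower with a group 10 UMI and Hoxb7 took the place of Hoxa9 as the 1 higher. Unthinned cells held 1.63 Hox genes each in place of 1.04, and unthinned pairs gave 0 apart in place of 2. Hoxb4 and Hoxc5, met in 2 thinned cells beside 11.8, and Hoxb2 and Hoxd9, met in 2 beside 7.80, were the pairs apart.

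Alternatives chosen after seeing the data were the filters on endothelial-marker cells, cells with markers of other types left out, cycling cells left out, single scores, summed raw UMIs and a level minimum over both sides together. With that minimum 0 members were higher with a group 10 UMI and 3 in endothelial-marker cells, because fewer were tested. With the committed score alone 1 member, Hoxb4, was higher in its top tercile. With endothelial-marker cells at or below the 95th percentile of precursor UMIs, 7 members were higher and 2 lower, counts with no share over all genes beside them. Stricter rules and smaller classes test fewer genes or cells by construction, and for the other values that moved the cause was not tested. Members under 5 CPM are limited by depth: most cells hold no UMI of them.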

Other observations

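Cycling precursor cells, 201 in all, had higher levels of some members than the precursors as a whole, and no such difference was detectable at this depth for others. Hoxc10 stood at 22.4 CPM (17.6 to 28.2) in cycling cells against 13.7 in all precursor cells, and Hoxa10 at 8.92 CPM (5.97 to 12.8) against 4.89. Hoxc5 stood at 10.1 (6.98 to 14.2) against 5.77 CPM and Hoxb7 at 7.69 (4.97 to 11.3) against 4.84. Hoxc8 stood at 19.7 against 21.8 CPM, and of the other posterior members Hoxa9 stood at 1.54 against 2.47, Hoxd9 at 1.54 against 2.66 and Hoxd11 at 0.307 against 0.763 CPM. Group 10 supplied 18.9% of Hox UMIs in cycling cells, 11.1% in Dpp4-type cells and 13.7% in committed cells. Cycling cells were deeper, with a median of 15957 UMIs, and the comparison was chosen after its values were seen. The precursors as a whole include the cycling cells, and Hoxb7 rested on 25 UMIs in cycling cells. No share over all genes is set beside these levels, so they are a description.

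The sorted cells expressed other genes that mark body position. Prrx1, a homeobox gene of limb and trunk mesenchyme, stood at 190 CPM over all kept cells, En1 at 35.9, Shox2 at 31.2, Tbx15 at 24.5, Tbx18 at 19.2 and Emx2 at 17.7 CPM. The hindlimb gene Tbx4 had 1 UMI, Pitx1 had 1.31 CPM and Zic1 0.667 CPM. Pitx1 was at 1.88 CPM in library 1 and 0.759 in library 2. Of the genes that set up Hox expression in the embryo, Cdx2, Cdx4 and T had no UMI and Cdx1 had 1. Among non-coding genes of the clusters, Hotairm1 stood at 10.9 CPM and Hoxd3os1 at 9.34, while Hottip had no UMI and Hotair 4 UMIs.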
